A study of Mus musculus with 9 samples.

Results

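B-cell precursors of the bone marrow display an immunoglobulin heavy chain together with a surrogate light chain, at a stage before a true light chain has been made. The surrogate light chain is built from a VpreB protein, encoded by Vpreb1 or by its near-identical copy Vpreb2, and from the product of Igll1, while Cd79a and Cd79b encode the signalling subunits of the receptor. Rag1 encodes a subunit of the recombinase that cuts antigen receptor genes, Ebf1 and Pax5 encode transcription factors that set up and maintain the B-cell programme, and Vpreb3 is a VpreB-related gene expressed by the same precursors. These 9 genes, taken by name, had 12 probes among the 37325 named genes of the array. All 9 were among the 29419 genes tested, which needed a probe that, in some group, exceeded background clearly on each of its 3 arrays (well above background by the scanner software's flag). Rag1 passed that filter through the Ctrl group alone.

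RNA of mature megakaryocytes (mMKs), the marrow cells that shed platelets, had been hybridised to 9 Agilent 1-colour arrays, 3 per group. The donors were male mice, and the methods name wild-type C57BL/6 as the strain of the study's general experiments without assigning a strain to the arrays. Ctrl mice had been sham-irradiated, and the other groups had received 1 total-body dose of 5 Gy γ-rays (IR) and were sampled 1 day or 3 days post IR (1 dpi and 3 dpi). Each experiment at a time point used different donors, and neither the age of these mice nor whether animals were pooled is given in the sources used here. The marrow had been flushed from femur and tibia, its erythrocytes had been lysed, and the mMKs had been enriched by positive selection for CD41 and then for CD42d, and the methods name no step directed at B-lineage cells. The methods describe an array of another maker than the deposited files, which were read as what their headers state.

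Between 69.1% and 81.8% of the probes on an array were well above background, and the number of arrays limits the precision. The label of the cells was checked first. All 17 megakaryocyte markers listed, from the platelet glycoprotein genes to Pf4, the brightest of them, were well above background on all 9 arrays. Their summed signal lay between 152 and 185 times the 75th percentile of the array. Transcripts of other marrow cells were abundant too, and the summed signal of 9 neutrophil genes, with Mpo the brightest, was 1016 to 1085 times that percentile in Ctrl, 1663 to 1817 times at 1 dpi and 1019 to 1142 times at 3 dpi. With limma, 0 of the 17 megakaryocyte markers changed at least 2-fold with an adjusted p under 0.05 in any comparison. At an unadjusted p under 0.05, 7 were lower and 4 higher at 1 dpi than in Ctrl, 2 were lower and 6 higher at 3 dpi than in Ctrl, and 1 was lower and 9 higher at 3 dpi than at 1 dpi. In such bulk samples, fewer B-lineage cells and less RNA per cell cannot be told apart.

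A gene was said to rise or fall where it changed at least 2-fold with an adjusted p under 0.05 (limma, Benjamini-Hochberg over all genes tested). Rag1, which passed the filter through Ctrl alone and was not well above background after IR, is left out of the counts that follow. Of the other 8 genes, 6 fell at 1 dpi and 1, Vpreb2, rose, while 2.88% of all genes tested fell and 12.3% rose. At 3 dpi, 7 of the 8 fell and 0 rose by limma, also 0 at an unadjusted p under 0.05 and 0 by the methods' t-test, while 1.82% of all genes fell and 6.98% rose. The remaining gene, Pax5, was measured by 2 probes that differed. Between the time points, 3 genes (Vpreb3, Igll1 and Ebf1) were higher at 3 dpi than at 1 dpi and 1 (Vpreb2) was lower, where 3.98% of all genes rose and 4.82% fell. The 8 genes gave the same counts in a fit of the 24047 genes with a probe well above background on all 9 arrays, where 612 genes fell and 2521 rose at 1 dpi and 441 fell and 1289 rose at 3 dpi. These shares depend on the scaling, and at 1 dpi 846 genes fell and 3622 rose, against 2088 and 1993 with median scaling, 1511 and 1943 with quantile normalization and, of 20071 genes, 1742 and 1763 in the deposited table. The median log2 change of the 8 genes was -2.19 at 1 dpi and -1.97 at 3 dpi, beside 0.25 and 0.11 over all genes tested. With Rag1 added at the level the arrays could still resolve, the medians were -1.53 and -1.71. From 1 to 3 dpi the median was 0.17 over the 8 genes and -0.11 over all genes. Both time points were compared with the same Ctrl arrays. The summed signal of the 9 genes, with Cd79b the brightest, was 23.3 to 24.5 times the 75th percentile in Ctrl, 6.55 to 7.30 times at 1 dpi and 5.34 to 5.47 times at 3 dpi, and without Cd79b it was 12.3 to 12.5, 1.95 to 2.47 and 1.31 to 1.38 times. At 1 dpi the brightest gene of the latter sum was Vpreb2, with a mean log2 level of 0.48, against -3.01 at 3 dpi. The step of that sum from 1 to 3 dpi therefore depends on the Vpreb2 probe, whose signal cannot be assigned to Vpreb2 alone.

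**Figure D1:**
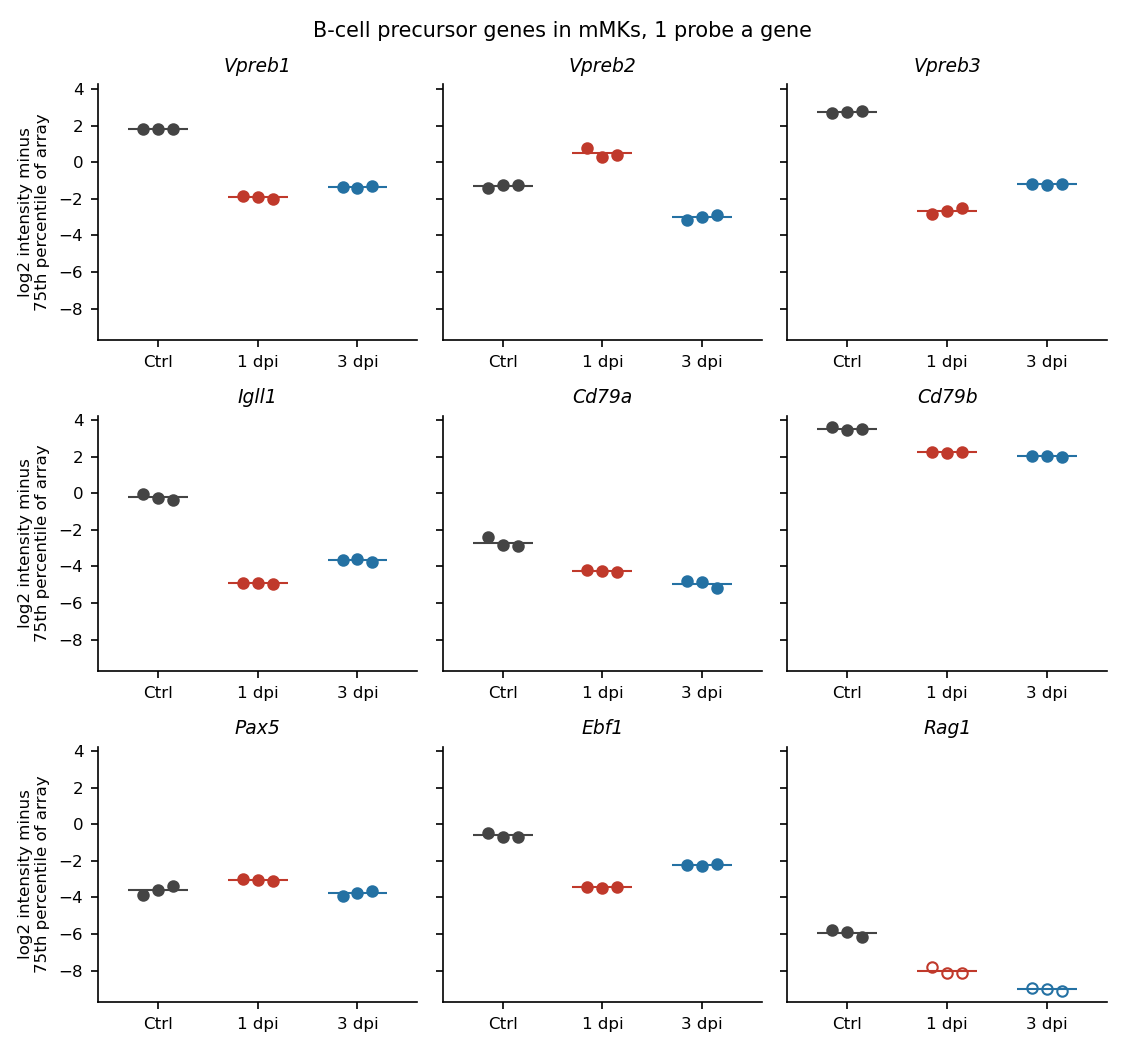
Level of each of the 9 genes on each array, through the probe that stands for the gene, as log2 intensity minus the array's 75th percentile. Points are arrays, bars are means of 3, and hollow points were not well above background. In 7 panels every Ctrl array lies above all arrays after IR, while Vpreb2 is highest at 1 dpi and the Pax5 probe shows overlapping groups.

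Among the genes of the surrogate light chain, Vpreb1 was even across replicates. Its level, in log2 units relative to the 75th percentile of the array, was 1.82, 1.82 and 1.82 in the Ctrl arrays, -1.83, -1.90 and -2.02 at 1 dpi, and -1.34, -1.41 and -1.30 at 3 dpi. The groups did not overlap, and 3 dpi lay between the other groups. Vpreb1 was 13.3-fold lower at 1 dpi (log2 change -3.74, SE 0.07, adjusted p 7.65e-08) and 9.01-fold lower at 3 dpi (log2 change -3.17, adjusted p 1.73e-07). The step from 1 to 3 dpi was 0.57 (SE 0.07), short of 2-fold.

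Igll1, whose product pairs with VpreB, had levels of -0.05, -0.28 and -0.35 in Ctrl, -4.89, -4.92 and -4.95 at 1 dpi, and -3.65, -3.57 and -3.75 at 3 dpi. The 1 dpi arrays were the lowest and the closest to each other. Before scaling, their intensities were only 21.6 to 23.0, near the background though flagged well above it. The folds that involve 1 dpi thus rest on dim values. Igll1 fell 25.9-fold at 1 dpi (log2 change -4.70, SE 0.09) and was 10.8-fold below Ctrl at 3 dpi (log2 change -3.43), and its rise from 1 to 3 dpi was 2.40-fold (log2 change 1.26, adjusted p 5.69e-05), which fell short of 2-fold with normexp background correction and quantile normalization together (0.69). That setting also gave smaller falls, with log2 changes of -3.42 at 1 dpi and -2.73 at 3 dpi. The Igll1 and Vpreb1 probes start 7455 bases apart on chromosome 16, at chr16:16861104-16861163 and chr16:16868559-16868618 (mm9, as the array files give them), and both genes fell at both times.

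Vpreb3, the VpreB-related gene, had the most negative change at both times among the probes that stood for the 9 genes. Its levels were 2.69, 2.76 and 2.79 in Ctrl, -2.85, -2.65 and -2.51 at 1 dpi, and -1.18, -1.26 and -1.20 at 3 dpi. The Ctrl arrays stood far above all others. The fall was 42.7-fold at 1 dpi (log2 change -5.42, SE 0.09, adjusted p 5.78e-08) and 15.6-fold at 3 dpi (log2 change -3.96, SE 0.09), with a 2.74-fold rise in between (log2 change 1.46). Ordered from the most reduced of the 29419 genes, Vpreb3 stood at place 7 at 1 dpi and place 6 at 3 dpi, with Igll1 at places 13 and 14 and Vpreb1 at places 42 and 23.

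Vpreb2 went the other way at 1 dpi. Its levels were -1.42, -1.23 and -1.24 in Ctrl, 0.80, 0.29 and 0.37 at 1 dpi, and -3.14, -3.02 and -2.87 at 3 dpi. Every 1 dpi array was above every Ctrl array, and every 3 dpi array was below them. The probe rose 3.44-fold at 1 dpi (log2 change 1.78, SE 0.14, adjusted p 5.17e-05), was 3.28-fold below Ctrl at 3 dpi (log2 change -1.71, adjusted p 7.28e-05) and dropped 11.3-fold from 1 to 3 dpi (log2 change -3.50, adjusted p 8.50e-06). Ordered from the lowest change of the 29419 genes in that last comparison, it stood at place 28.

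The Vpreb2 signal cannot be assigned to Vpreb2 alone. The array files list 4 transcripts for its probe, 2 of which they also list for the Vpreb1 probe, whose signal fell. The probe is shown because its sequence is also unusual in composition. It lies at chr16:17981114-17981173 (mm9), and the capitals mark its 3 runs of at least 8 purines (A or G), which hold 34 of its 60 bases.
Vpreb2 probe: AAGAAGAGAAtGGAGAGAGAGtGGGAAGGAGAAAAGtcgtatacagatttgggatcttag
Purines made up 76.7% of this probe, against 40.0% to 60.0% in the other 11 probes of the 9 genes and a median of 50% over the 44318 probes tested. The 57 other tested probes with at least as high a share, a group chosen after the Vpreb2 values were seen, had a median log2 change of 1.26 at 1 dpi (quartiles 0.84 and 1.69), where the median of all probes was 0.22. Of these 57 probes, 12 had a higher change than the Vpreb2 probe and 45 a lower one. At 3 dpi the same 57 probes had a median of 0.46, and all 57 lay above the Vpreb2 probe. The part of base composition in the rise at 1 dpi was not tested.

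The copies also share sequence upstream of the gene. Within the 250 bases before the annotated starts (RefSeq, GRCm38.p6), the best ungapped match of Vpreb1 and Vpreb2 spans 106 bases, 104 of them identical. It covers the last 106 bases before the start of Vpreb1 (chr16:16869256-16869361, minus strand) and bases 250 to 145 before the start of Vpreb2 (chr16:17980315-17980420, plus strand). Both ends lie at the edge of the bases searched, so how far the similarity extends was not determined. Capitals mark the 2 positions that differ.
Vpreb1 upstream: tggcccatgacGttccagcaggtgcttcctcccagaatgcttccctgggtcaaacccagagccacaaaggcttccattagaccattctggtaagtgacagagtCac
Vpreb2 upstream: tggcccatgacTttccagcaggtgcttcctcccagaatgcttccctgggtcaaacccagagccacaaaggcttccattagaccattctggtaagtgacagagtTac

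The signalling subunits fell at both times and, on the scaled values, were not higher at 3 dpi than at 1 dpi. The Cd79b probe had intensities of 12785 to 18713 in Ctrl, 3105 to 3305 at 1 dpi and 5445 to 6049 at 3 dpi before scaling between arrays. On the scaled log2 values Cd79b read 3.61, 3.44 and 3.53 in Ctrl, 2.27, 2.20 and 2.26 at 1 dpi, and 2.04, 2.01 and 1.99 at 3 dpi. All arrays after IR were thus below Ctrl but still above the 75th percentile. The reduction was 2.43-fold at 1 dpi (log2 change -1.28, SE 0.06, adjusted p 4.61e-06) and 2.86-fold at 3 dpi (log2 change -1.52, SE 0.06). The difference between the time points, -0.23, was under 2-fold.

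Cd79a, whose probe of 60 bases covers a longer stretch of the genome (chr7:25684357-25684614, mm9), was also lower after IR. It read -2.42, -2.86 and -2.88 in Ctrl, -4.20, -4.24 and -4.30 at 1 dpi, and -4.81, -4.84 and -5.18 at 3 dpi. After scaling, the 3 groups were separate and in descending order of time. Intensities before scaling were dim after IR, at 35.0 to 37.1 at 1 dpi and 41.0 to 52.6 at 3 dpi. The order of 1 and 3 dpi therefore came with the scaling. The fall was 2.88-fold at 1 dpi (log2 change -1.53, SE 0.15, adjusted p 1.30e-04) and 4.67-fold at 3 dpi (log2 change -2.22, adjusted p 2.16e-05; -1.28 with normexp and quantile normalization). The further drop of -0.70 from 1 to 3 dpi did not reach 2-fold and lay between -0.76 and -0.18 over the settings tried.

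**Figure D2:**
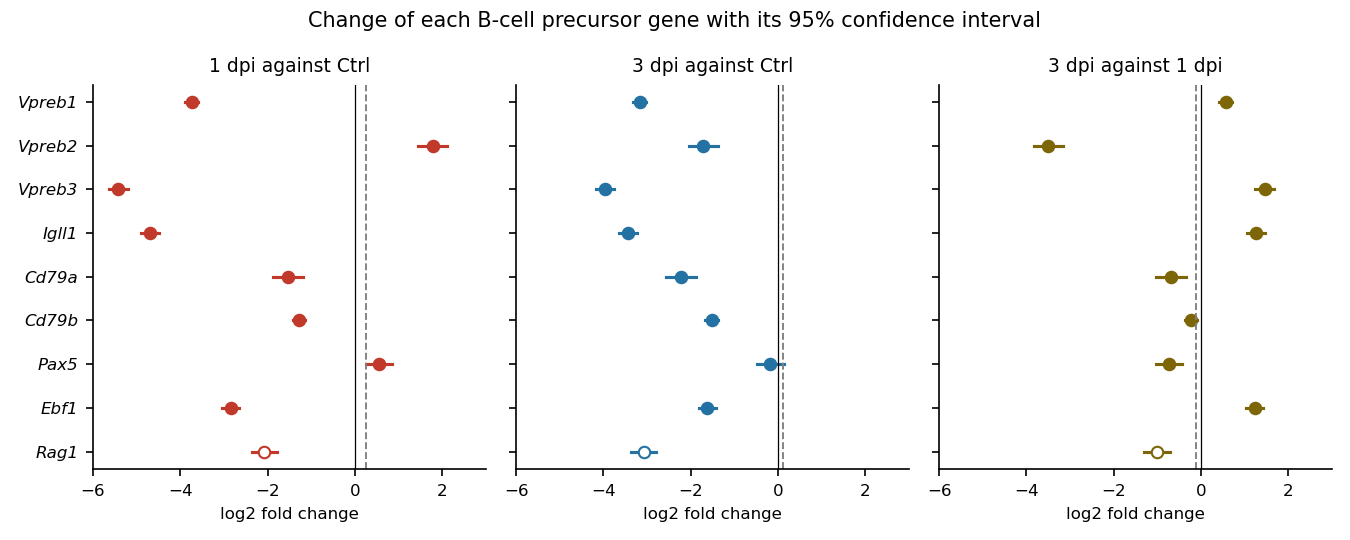
Log2 change of each of the 9 genes in the 3 comparisons, with the 95% confidence interval from limma; hollow points involve a group in which the probe was not well above background, and the dashed line is the median of all genes tested. Vpreb3, Igll1 and Vpreb1 have the most negative changes at 1 dpi (-5.42, -4.70 and -3.74), and of the changes against Ctrl only that of Vpreb2 at 1 dpi is positive and at least 2-fold (1.78).

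Ebf1, the transcription factor that acts early in B-cell specification, was read by 3 probes, and all 3 fell. The probe with the highest mean log2 value over all arrays, which stood for the gene, read -0.46, -0.69 and -0.68 in Ctrl, -3.45, -3.50 and -3.41 at 1 dpi, and -2.21, -2.31 and -2.16 at 3 dpi. The 3 dpi arrays lay between the other groups. This probe was 7.18-fold lower at 1 dpi (log2 change -2.84, SE 0.08, adjusted p 4.58e-07), 3.07-fold lower at 3 dpi (log2 change -1.62) and rose 2.34-fold in between (log2 change 1.23, adjusted p 4.09e-05). A neighbouring probe starting 1818 bases away read -1.10, -1.13 and -1.17 in Ctrl, -3.33, -3.66 and -3.53 at 1 dpi, and -2.44, -2.58 and -2.58 at 3 dpi. Its groups were in the same order, with changes of -2.37 at 1 dpi, -1.40 at 3 dpi and 0.97 between them. The last probe starts 388907 bases from the first, and its 60 bases are found 85 to 26 bases before an annotated Ebf1 start. It read -0.35, -0.38 and -0.25 in Ctrl, -3.34, -3.37 and -3.54 at 1 dpi, and -2.84, -3.18 and -3.09 at 3 dpi. Its changes were -3.09 at 1 dpi, -2.71 at 3 dpi and 0.38 between them, and whether that step differed between the probes was not tested. In percent of the log2 fall at 1 dpi, the first probe had regained 43.2% by 3 dpi, its neighbour 40.9% and the probe near the start 12.4%. Only the first passed 2-fold from 1 to 3 dpi, and with normexp and quantile normalization the value for Ebf1 was 0.96. The mean over the 3 probes gave 0.86 for that step.

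For Pax5, the factor that commits cells to the B lineage, the 2 probes differed at 1 dpi. The probe at base 7637 of its transcript (chr4:44537936-44537995, mm9) read -1.96, -1.95 and -1.93 in Ctrl, -6.77, -8.12 and -7.94 at 1 dpi, and -6.53, -5.66 and -5.41 at 3 dpi. It was well above background in Ctrl and at 3 dpi and on none of the 1 dpi arrays. Where a group has no array well above background, the fold is a bound, taken against the lowest signal that was well above background on each array or the probe's own value if higher. On that basis the probe was at least 14.1-fold lower at 1 dpi than in Ctrl (adjusted p over all probes 2.57e-05), and it was 15.1-fold lower at 3 dpi (log2 change -3.92, SE 0.39, adjusted p 1.96e-04). Its 3 dpi arrays exceeded its 1 dpi arrays, but the bound was under 1 and no fold is given.

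The other Pax5 probe, at base 566 (chr4:44692322-44692381, mm9) and starting 154386 bases from the former, stood for the gene because its mean log2 value over all arrays was higher. It read -3.86, -3.59 and -3.36 in Ctrl, -2.98, -3.03 and -3.12 at 1 dpi, and -3.91, -3.75 and -3.65 at 3 dpi. The Ctrl and 3 dpi arrays overlapped. None of its changes reached 2-fold, with 0.56 at 1 dpi (adjusted p 0.00826), -0.17 at 3 dpi (adjusted p 0.354) and -0.73 between the time points (adjusted p 0.00311). Pax5 is therefore not called by the gene rule and reduced by its probe at base 7637, and its probes differed by more than the spread between replicates of either. In the deposited log2 table, the Pax5 values tracked the probe at base 7637 and the Ebf1 values the probe near the start.

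**Figure D3:**
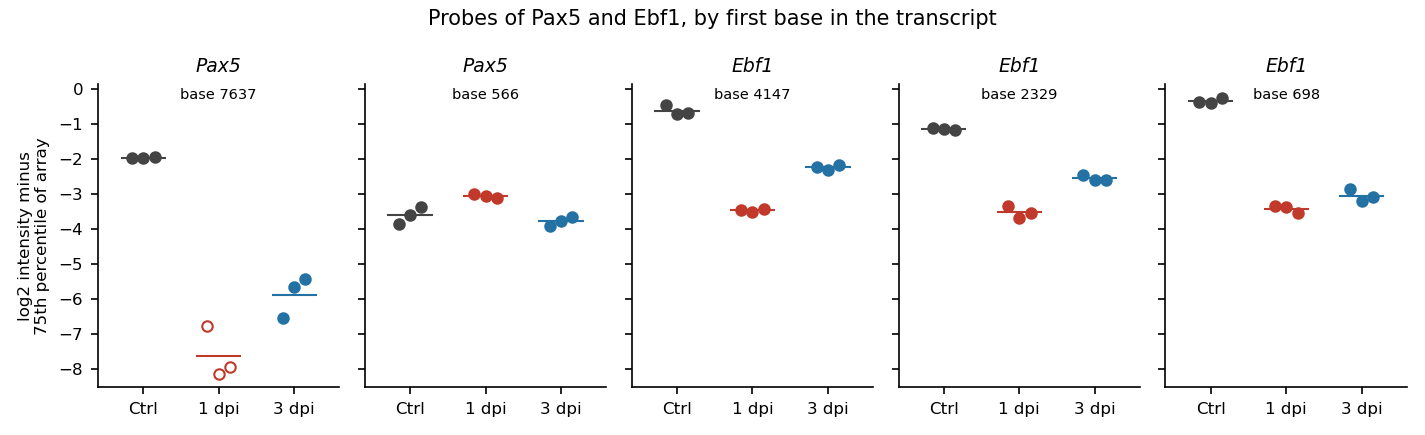
Levels of the 2 Pax5 probes and the 3 Ebf1 probes on each array, as log2 intensity minus the array's 75th percentile, with each probe's first base in its transcript. Points are arrays, bars are means of 3, and hollow points were not well above background. The Pax5 probe at base 7637 averages -1.95 in Ctrl and is not well above background on any 1 dpi array, while the one at base 566 stays between -3.91 and -2.98.

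Rag1, the recombinase subunit, lay close to the background of the arrays. It read -5.78, -5.91 and -6.14 in Ctrl, -7.79, -8.12 and -8.15 at 1 dpi, and -8.97, -9.00 and -9.10 at 3 dpi, and its Ctrl intensities before scaling were 19.0 to 26.1. It was well above background on all 3 Ctrl arrays and on 0 of 3 arrays at each time after IR. At 3 dpi it was at least 1.85-fold lower than in Ctrl, a bound short of 2-fold. At 1 dpi the bound was under 1 and no fold is given, and between the time points both groups were below background, so no change is counted there. The limma fit gave adjusted p 1.32e-05 at 1 dpi and 1.78e-06 at 3 dpi. Both were computed on readings below background after IR and are no support for a fall. With normexp and quantile normalization its values against Ctrl were -0.53 at 1 dpi and -0.46 at 3 dpi, short of 2-fold.

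Ctrl replicate 1 had been hybridised to a slide of its own, and the other 8 arrays shared a slide. Within the shared slide, with 2 Ctrl arrays, each of the 8 genes other than Rag1 kept its call in each comparison, and the change at 1 dpi was -5.44 for Vpreb3, 1.72 for Vpreb2 and -1.24 for Cd79b. The median over all genes tested was then 0.15 at 1 dpi and 0.01 at 3 dpi. The p-values measure the spread between the samples of a group.

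Of 9 genes of V(D)J recombination, the process begun by the RAG recombinase, 3 fell and 1 rose at 1 dpi and 2 fell at 3 dpi. Dntt, which adds untemplated nucleotides at the joints, changed by -2.85 on the log2 scale at 1 dpi and by -2.57 at 3 dpi. Rag2, the partner of Rag1, changed by -2.29 at 1 dpi, where 1 of 3 arrays was well above background, and by -2.19 at 3 dpi. Lig4, the DNA ligase of end joining, fell by 1.43 at 1 dpi, and Dclre1c, the Artemis nuclease, rose by 1.02 by the highest of its 3 probes, the lowest of which gave 0.44. The list median was -0.46 at 1 dpi, -0.42 at 3 dpi and 0.11 between them. With limma 0 genes rose at 3 dpi and 0 changed between the time points, where at an unadjusted p under 0.05 there were 2 higher, and 1 lower and 3 higher.

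Of 12 B-lineage transcription factors, 6 fell at each time after IR, with list medians of -1.18 and -1.44. The largest falls at 1 dpi were in Bach2 (-4.11), Spib (-3.65), Lef1 (-3.26) and Pou2af1 (-2.91), the last a coactivator of octamer-binding factors, while a second Bach2 probe gave -1.59 at 1 dpi and -2.01 at 3 dpi. At 3 dpi Spib (-3.20) and Bach2 (-2.88) were still far below Ctrl. Lef1 rose by 1.31 and Bach2 by 1.24 from 1 to 3 dpi, the 2 genes of this list that did so, although the second Bach2 probe gave -0.43, and the list median of that step was 0.28.

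Of 11 genes of pre-B receptor signalling, 3 fell and 1 rose at 1 dpi, 3 fell at 3 dpi, and 1 rose and 1 fell between the time points. Blnk, the adaptor downstream of the receptor, fell by 1.48 at 1 dpi and rose by 1.08 from 1 to 3 dpi, and the kinase gene Blk changed by -1.23 at 3 dpi and by -1.01 from 1 to 3 dpi. Pik3ap1 rose by 1.20 at 1 dpi. The list median was -0.20 at 1 dpi, -0.14 at 3 dpi and -0.01 between them. Of 7 surface and cytokine receptors of precursors, Flt3 fell (-1.65 at 1 dpi and -2.14 at 3 dpi) and Bst1 rose at both times (1.30 at 1 dpi), and the list medians were 0.08, -0.14 and -0.04. A second Flt3 probe gave 0.56 and -0.08.

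Of 13 mature B-cell genes, 11 were tested, since Ighm and Ighd had no probe under those names, and 6 fell at each time after IR. Ms4a1 (-4.13), Fcmr (-4.08), Fcer2a (-3.92, with 2 of 3 arrays well above background) and Tnfrsf13c (-2.99) fell most at 1 dpi and stood at -3.77, -4.36, -3.94 and -3.27 at 3 dpi. Second probes of Ms4a1 (1.46), Fcer2a (0.99) and Tnfrsf13c (0.32) did not fall at 1 dpi and gave -0.0016, -0.13 and -0.56 at 3 dpi. The list median was -1.12 at 1 dpi, -1.11 at 3 dpi and 0.01 between them. Of 5 plasma cell genes, Prdm1 rose at 3 dpi (1.20), and Tnfrsf17 (1.12) and Jchain (1.11) rose from 1 to 3 dpi, with list medians of -0.03, 0.54 and 0.74.

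**Figure D4:**
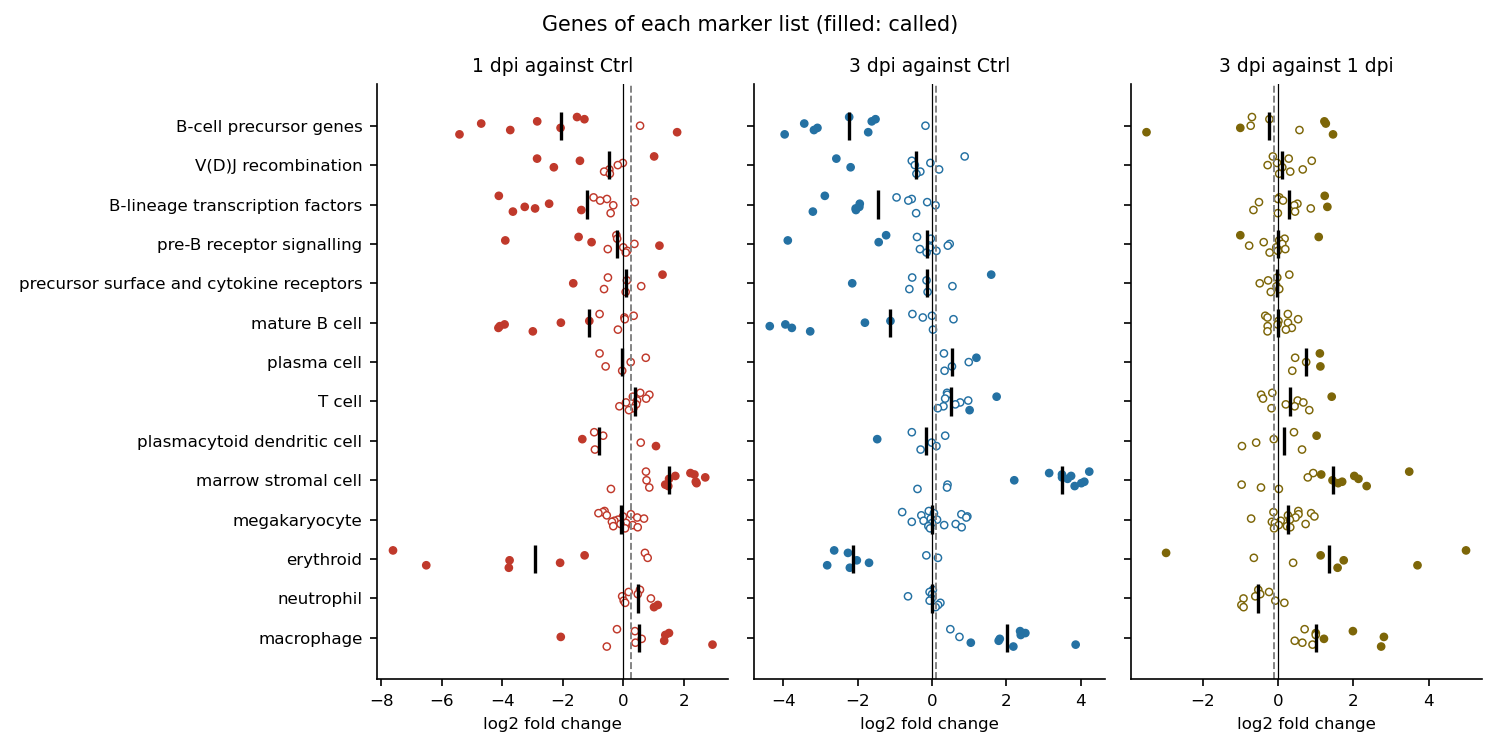
Log2 change of each gene of the lists in the 3 comparisons. Points are genes, filled where called, black bars are list medians, and the dashed line is the median of all genes tested. The B-lineage transcription factors have a median of -1.18 at 1 dpi, the bar of the B-cell precursor genes takes Rag1 at its measured value (with Rag1 at its bound the median is -1.53), and the stromal list reaches 3.50 at 3 dpi.

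Markers of other marrow cells changed in the same samples. Of 8 erythroid genes, 6 fell at 1 dpi and 6 at 3 dpi, and 5 rose and 1 fell from 1 to 3 dpi. Ahsp, the chaperone of alpha-globin, fell by 7.62 at 1 dpi and rose by 4.99 from 1 to 3 dpi, and Rhd fell by 6.51 at 1 dpi, where 2 of 3 arrays were well above background and a second probe gave -2.60. The summed erythroid signal, with Ahsp the brightest in Ctrl, was 12.4 to 12.5 in Ctrl, 3.85 to 4.69 at 1 dpi and 4.09 to 4.45 at 3 dpi, and without Ahsp 7.52 to 7.82, 3.83 to 4.66 and 3.28 to 3.73. The part of erythroid cells in the changes of the 9 genes was not tested.

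Ebf1 is also expressed by marrow stromal cells, and markers of such cells rose in the same samples. Of 13 stromal genes, 9 rose at 1 dpi, and the fit called 10 higher at 3 dpi and 8 from 1 to 3 dpi. Ebf2 passed the filter through 3 dpi alone and is among the 10 and the 8. From 1 to 3 dpi its bound was 1.22-fold, short of 2-fold, so Ebf2 supports no rise there. The list medians were 1.52, 3.50 and 1.44. Without Ebf2 where it was below background in both groups, the first of these medians was 1.62, and with Ebf2 at its bound the last was 1.14. The summed signal, with Cxcl12 the brightest, was 10.01 to 10.5 in Ctrl, 44.5 to 51.7 at 1 dpi and 89.2 to 98.0 at 3 dpi. The Ebf1 paralogue Ebf3 rose by 2.40 at 1 dpi and by 4.10 at 3 dpi, and Adipoq by 4.23 at 3 dpi. Ebf2 was not well above background in Ctrl or at 1 dpi and was at least 2.17-fold higher than Ctrl at 3 dpi. The stromal part in the Ebf1 signal at 3 dpi was not tested.

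Of 10 macrophage genes, 4 rose and 1 fell at 1 dpi, 8 rose at 3 dpi and 5 rose from 1 to 3 dpi (medians 0.51, 2.01 and 1.00), led by Marco at 1 dpi (2.95) and at 3 dpi (3.87), and their summed signal, with Csf1r the brightest, was 39.5 to 46.8 in Ctrl, 64.6 to 69.7 at 1 dpi and 119 to 126 at 3 dpi. Of 9 neutrophil genes, S100a8 (1.14) and S100a9 (1.02) rose at 1 dpi, and the medians were 0.48, 0.01 and -0.53. The part of macrophages and neutrophils in the changes of the 9 genes was not tested. Of 10 T-cell genes, Cd3g (1.74) and Zap70 (1.01) rose at 3 dpi and Cd3g (1.42) from 1 to 3 dpi, with medians of 0.38, 0.52 and 0.32. Of 6 genes of plasmacytoid dendritic cells, which share several B-lineage genes, Klk1 fell at both times (-1.35 and -1.47), Siglech rose at 1 dpi (1.08, with another probe at -1.61), and Cox6a2 rose from 1 to 3 dpi (1.02). Their medians were -0.80, -0.15 and 0.15. The summed signal of this list, with Siglech the brightest, was 21.4 in Ctrl replicate 1, the array on its own slide. It was 37.0 and 38.1 in the other Ctrl arrays and 51.8 to 57.5 at 1 dpi. Without Siglech the Ctrl sums were 8.64, 9.21 and 9.51. The size of the Siglech rise, and whether it reaches 2-fold, thus depends on Ctrl replicate 1. The megakaryocyte list, by comparison, had medians of -0.09, 0.01 and 0.26.

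The genes outside the set whose profile over the 9 arrays was closest to the median profile of the 9 genes were Niban3, Flt3, Rsph9, Cecr2 and Cd27, with root mean square differences of 0.14, 0.15, 0.16, 0.18 and 0.22 on the log2 scale. Their changes at 1 dpi ran from -2.01 for Cecr2 to -1.54 for Cd27. Among the 9 genes, Cd79a lay closest to that profile (0.22) and Vpreb2 farthest from it (1.63). That profile includes Rag1 below background after IR, and against the profile without Rag1, an alternative chosen after seeing the data, only Rsph9 (0.16) was still among the 5 closest.

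Since several of the 9 genes fell together, the 250 bases before their annotated starts were searched on both strands for 3 motifs chosen with the sequences in view. These were CCCNNGGG, the core recognised by EBF factors, CAGGTG, an E-box recognised by E proteins such as the Tcf3 product, and ATTTGCAT, the octamer. The promoter table (RefSeq, GRCm38.p6) matched 8 of the 9 genes by symbol, with 9 windows in all; Cd79b was not among them. Over the 32851 windows of the table, the EBF core stood in 11.8%, the E-box in 17.2% and the octamer in 1.6%. The EBF core was found for 1 of the 8 genes, Igll1, the E-box for 5 (Vpreb1 and Vpreb2, in the upstream bases these copies share, Igll1, Cd79a and Rag1) and the octamer for 1, Vpreb3. The windows of 3 genes that fell are shown, with the matches in capitals: the EBF core of Igll1 at bases 231 to 224 before the start and its E-box at 8 to 3, read on the other strand (chr16:16863986-16864235, minus strand), the octamer of Vpreb3 at 45 to 38 (chr10:75948050-75948299, plus strand) and the E-box of Cd79a at 154 to 149 (chr7:24897247-24897496, plus strand).
Igll1 upstream: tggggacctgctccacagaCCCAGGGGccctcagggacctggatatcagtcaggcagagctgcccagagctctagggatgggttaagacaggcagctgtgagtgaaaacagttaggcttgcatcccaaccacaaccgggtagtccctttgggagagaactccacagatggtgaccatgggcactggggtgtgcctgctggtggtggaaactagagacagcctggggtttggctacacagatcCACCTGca
Vpreb3 upstream: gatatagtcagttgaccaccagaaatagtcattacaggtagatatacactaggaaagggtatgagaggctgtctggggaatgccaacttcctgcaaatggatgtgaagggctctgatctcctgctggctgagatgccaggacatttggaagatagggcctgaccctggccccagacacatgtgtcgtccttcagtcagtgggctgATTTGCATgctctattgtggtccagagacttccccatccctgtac
Cd79a upstream: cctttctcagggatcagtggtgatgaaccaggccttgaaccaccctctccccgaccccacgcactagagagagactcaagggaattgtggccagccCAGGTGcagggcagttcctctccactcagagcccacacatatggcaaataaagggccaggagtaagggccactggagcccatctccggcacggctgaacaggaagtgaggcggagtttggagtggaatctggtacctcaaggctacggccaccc
A match of letters is a description of the window and shows neither a bound site nor a cause.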

How the data were processed

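The deposited intensity values of 9 Agilent 1-colour (Cy3) arrays had been background-subtracted and detrended within each array by Feature Extraction 10.7.1.1, per the file headers. The deposited log2 table, whose column medians lay between 5.79 and 5.87 and whose scaling is not given in the sources used here, served as an alternative. Control and outlier spots were left out, and the log2 intensity minus each array's 75th percentile was analysed. Each gene was read by its probe with the highest mean log2 value among the 44318 probes kept, those that every array of some group showed well above background. RefSeq accessions named 32994 probes and the array's own names 23611. Group means of all 9 arrays were fitted with limma 3.58.1 in R 4.3.3, p-values were adjusted by Benjamini-Hochberg over all 29419 genes, and the fit was tested on simulated data. An exact permutation test of 3 against 3 arrays cannot go below 0.10.

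All 9 members were named whatever their values, with up to 4 called genes of each list by size of change. The lists covered V(D)J recombination, B-lineage transcription factors, pre-B receptor signalling, precursor receptors, and markers of mature B cells, plasma cells, T cells, plasmacytoid dendritic cells, stromal cells, megakaryocytes, erythroid cells, neutrophils and macrophages. Members and lists were chosen with earlier results of these data known. Alternatives covered scaling, background correction, the filter, the probe rule, blocks, the methods' t-test and leaving out each array.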

Additional observations from a re-analysis of the deposited data

Results flagged for a closer look

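For 4 genes the change against Ctrl differed between 1 and 3 dpi by at least 2-fold, tested by limma on the difference itself, in which the shared Ctrl arrays cancel. The change at 3 dpi minus the change at 1 dpi was -3.50 on the log2 scale for the Vpreb2 probe (adjusted p 8.50e-06), whose direction against Ctrl turned and whose signal cannot be assigned to Vpreb2 alone. It was 1.46 for Vpreb3 (adjusted p 3.19e-05), 1.26 for Igll1 (adjusted p 5.69e-05) and 1.23 for Ebf1 (adjusted p 4.09e-05), all of which were nearer to Ctrl at 3 dpi. For Ebf1 this is the probe that stood for the gene, and the other 2 probes gave 0.97 and 0.38, short of 2-fold. For each of these genes every 3 dpi array lay on the same side of every 1 dpi array.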

How the results depend on the processing

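Over 13 other settings, 318 of 348 values kept their direction and side of the threshold, 10 became weaker, 13 stronger and 7 reversed. With 1 array left out, 241 of 243 values did so and 2, both of Rag1 from 1 to 3 dpi, became weaker. Pax5 reversed at 1 dpi with the mean over its probes (-2.55), in the deposited table (-5.98) and with the brightest probe on the linear scale (-5.66), a setting chosen after seeing the data, and from 1 to 3 dpi likewise (0.51, 1.98 and 1.74). These settings take in its other probe, which was not well above background on any 1 dpi array, so the 6 values are no sizes of change, and the reversals from 1 to 3 dpi support no rise. Rag1 from 1 to 3 dpi was 0.070 with normexp and quantile normalization (called normexp below), where both groups were not well above background. Under that setting Igll1 (0.69) and Ebf1 (0.96) fell short of 2-fold from 1 to 3 dpi. Ebf1 also did with the mean over its probes (0.86), and its probe near the start gave 0.60 in the deposited table and 0.38 as the brightest on the linear scale.

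With normexp, 1668 genes were called at 1 dpi, 1146 at 3 dpi and 1088 between the time points, where 2 members were called. On adjusted p alone the counts were 16446, 9419 and 13128, by the methods' t-test 15676, 10527 and 16912, and after Benjamini-Hochberg 12624, 7124 and 14316, with all 8 members other than Rag1 called between the time points in each. Without the filter, 4488 genes were called between the time points.

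Of the genes called, 81.1% were higher at 1 dpi, but 56.3% with quantile normalization, 48.8% with median scaling, 50.3% in the deposited table and 68.7% with normexp. At 3 dpi 79.3% were higher and 68.8% in the deposited table, and between the time points 45.2%, against 62.9%, 67.2% and 64.1% with the first 3 of these settings and 26.7% without the filter. The median of all genes at 1 dpi was 0.25, and -0.07 with median scaling.

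Samples with the same replicate number did not pair: their deviations correlated from -0.11 to 0.13 over 9 pairs, and those of other numbers from -0.15 to 0.10 over 18. With the replicate block, each of the 8 members other than Rag1 kept its call in each comparison, while 850 genes fell and 3424 rose at 1 dpi. Slide as a block gave the values of the fit without Ctrl replicate 1. Signal over background limits Rag1 and Pax5 after IR. Igll1 at 1 dpi (intensities 21.6 to 23.0) and Cd79a after IR (35.0 to 52.6) were flagged well above background but dim.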
